A study of Mus musculus with 11 samples.

Results

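The guanylate-binding proteins (GBPs) of mouse chromosome 5 were followed in sorted beta cells. They are Gbp4, Gbp6, Gbp8, Gbp9, Gbp10, Gbp11 and the predicted gene Gm43302, chosen by symbol and Ensembl identifier. They make up 7 of the 55487 genes in the files, and all 7 passed the filter on low counts. RNA-seq libraries came from FACS-sorted beta cells of C57BL/6 mice, described as male in the study's methods and as adult in a supplementary legend. PD-L1high beta cells (n = 4) and PD-L1low beta cells (n = 3) were sorted by the amount of the ligand PD-L1 on their surface, after the islets had spent 20 h in medium with IFNγ at 50 pg/mL. Control beta cells (n = 4) were sorted from islets cultured without IFNγ. The labels number the replicates from 1 to 4, with no PD-L1low library for the first. Whole islets were treated after isolation, so the cells were exposed in culture and not in the animal, and the number of animals behind each library is not given in the sources used here.

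GBPs are large GTPases of the dynamin superfamily, and their genes are among those most known for induction by IFNγ. The cytokine acts through its receptor and the Janus kinases bound to it, which switch on target genes and further regulators such as Irf1. In infected mouse cells GBPs gather on the membranes around intracellular microbes together with the immunity-related GTPases (IRGs), and this loading depends on the machinery that attaches ATG8 proteins to lipids. Mouse GBP genes lie in a pair of clusters, one on chromosome 3 and one on chromosome 5. The single roles of the chromosome 5 members are less well known than those of the chromosome 3 members and are not described one by one here.

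The cluster spans 332.3 kb, chr5:105014150-105346472 of GRCm38, and every member is on the minus strand. Gbp8 (ENSMUSG00000034438) lies at chr5:105014150-105139540, Gbp9 (ENSMUSG00000029298) at chr5:105077630-105139539 and Gbp4 (ENSMUSG00000079363) at chr5:105115767-105139586. These 3 annotated spans overlap and begin within 47 bases of each other, because transcripts of Gbp8 and Gbp9 are drawn from the start of Gbp4. Gm43302 (ENSMUSG00000079362) lies at chr5:105214907-105293695. It covers the whole of Gbp10 (ENSMUSG00000105096, chr5:105215699-105239533) and begins 3 bases from the start of Gbp6 (ENSMUSG00000104713, chr5:105270702-105293698). Gbp11 (ENSMUSG00000092021) lies at chr5:105323042-105346472 and is annotated as a polymorphic pseudogene, and the annotated reading frame of its reference transcript meets a stop after 442 codons. The other members are annotated as protein coding, with 525 codons in Gbp8, 611 in Gbp6, Gbp10 and Gm43302, 619 in Gbp9 and 631 in Gbp4.

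The coding sequences are close copies of each other, which bears on how reads were shared out among the genes. The stretch of 75 coding bases around the first nucleotide-binding motif of the GTPase domain, the P-loop, is shown for each member, coding bases 103 to 177 of the reference transcript, 5′ to 3′ on the minus strand. The 24 bases of the motif are in capitals.
Gbp4, chr5:105136845-105136919: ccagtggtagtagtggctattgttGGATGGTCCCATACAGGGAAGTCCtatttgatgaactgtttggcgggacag
Gbp6, chr5:105290844-105290918: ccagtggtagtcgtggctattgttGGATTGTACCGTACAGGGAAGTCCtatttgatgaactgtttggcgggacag
Gm43302, chr5:105290844-105290918: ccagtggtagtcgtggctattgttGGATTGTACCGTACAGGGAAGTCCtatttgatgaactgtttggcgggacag
Gbp10, chr5:105235958-105236032: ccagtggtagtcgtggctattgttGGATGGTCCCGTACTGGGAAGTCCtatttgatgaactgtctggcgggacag
Gbp9, chr5:105105671-105105745: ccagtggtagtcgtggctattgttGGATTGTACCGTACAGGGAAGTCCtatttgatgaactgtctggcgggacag
Gbp8, chr5:105050871-105050945: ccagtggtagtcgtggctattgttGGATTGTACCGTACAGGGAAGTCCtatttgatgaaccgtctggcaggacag
Gbp11, chr5:105343753-105343827: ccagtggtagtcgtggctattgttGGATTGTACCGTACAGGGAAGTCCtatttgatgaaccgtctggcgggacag
Gbp6 and Gm43302 share this stretch base for base, since it is the same exon of the genome. Gbp9 differs from both at 1 base, and Gbp4 and Gbp8, the pair furthest apart, differ at 7.

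Over the whole coding sequence, Gbp6 and Gm43302 differ at 2 of 1833 aligned bases (99.89% identity). Gbp6 and Gbp10 differ at 30 of 1833 (98.36%), and Gbp10 and Gm43302 at 28 of 1833 (98.47%). The remaining pairs are 90.01% to 93.94% identical. Reads were 75 bases long, so the words of 75 bases in each gene's transcripts were looked up in the transcripts of all other genes. For Gbp4, 96.92% of words were found in no other gene, for Gbp9 96.39%, for Gbp8 91.96% and for Gbp11 89.72%. The share was 32.67% for Gbp6, 22.25% for Gbp10 and 0.59% for Gm43302, and every shared word was shared with another member and none with a gene outside the cluster. Counts of Gbp6, Gbp10 and Gm43302 are therefore uncertain one by one, and their sum is given beside them.

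**Figure D1:**
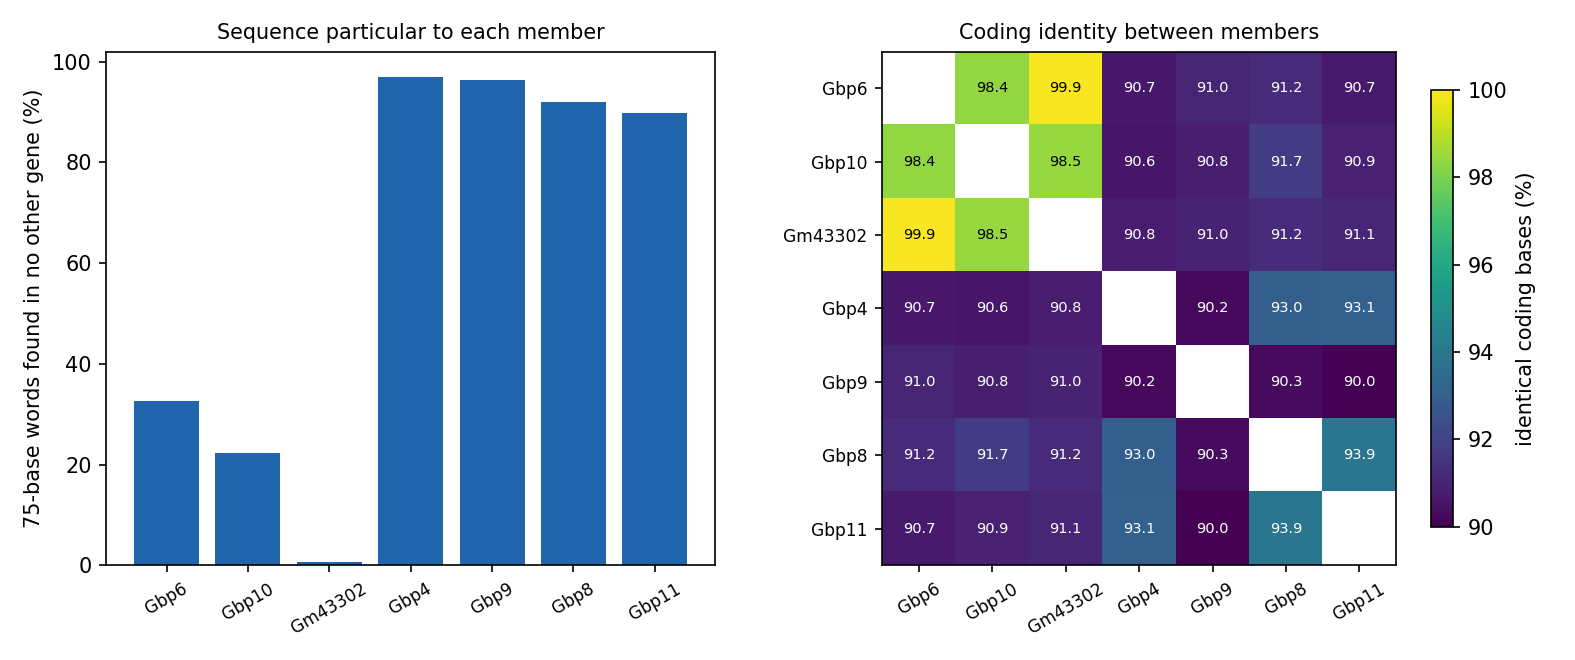
Left, percentage of 75-base words of each gene's transcripts that occur in no other gene. Right, percentage of identical aligned coding bases for each pair of members. Gbp6, Gbp10 and Gm43302 stand apart, with 0.59% to 32.67% of words of their own and 98.36% to 99.89% identical coding bases, against 89.72% to 96.92% of words for the other 4 members.

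Libraries held 10422038 to 15810803 expected counts, and the share from mitochondrial genes was 5.54% to 13.3%, highest in control replicate 1. The summed beta cell markers (Ins1, Ins2, Mafa, Pdx1, Nkx6-1, Slc2a2, Ucn3, Iapp) had 62030 to 90310 CPM in PD-L1high cells, 71830 to 77220 in PD-L1low cells and 60770 to 93580 in control cells, where CPM is the count scaled to the TMM-normalized library size. Markers of immune and endothelial cells were at low levels in every group. The 6 macrophage markers summed to 9.77 to 12.2 CPM in PD-L1high cells, 7.50 to 10.9 in PD-L1low cells and 7.12 to 11.3 in control cells, with Adgre1 and Lyz2 at 0 counts in all 11 libraries and most of the sum from C1qa (at most 9.03 CPM). The 4 endothelial markers summed to at most 0.785 CPM and the 4 lymphocyte markers to at most 1.24 CPM. Other endocrine markers were lower in PD-L1low cells: the PP cell pair Ppy and Pyy summed to 232 to 561 CPM in PD-L1high cells, 26.7 to 33.4 in PD-L1low cells and 149 to 382 in control cells, and the 4 alpha cell markers to 462 to 1325, 180.4 to 243 and 228 to 1178 CPM in the same groups. Their part in the results below was not tested.

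The 6 members with counts above 0 in every library were higher in PD-L1high cells than in control cells, by 19.8-fold for Gbp8 up to 119-fold for Gbp4. Gm43302 was also called, but it passed the filter on low counts only through its level in PD-L1high cells. Gbp10 and Gbp11 exceeded the filter in all 4 PD-L1high and all 3 PD-L1low libraries, but in only 1 and 2 control libraries. These 2 genes were thus kept through the treated groups, where they are higher. In PD-L1low cells the 6 had fitted values 2.64 to 8.19 times those of control cells, none of which passed edgeR's test with all 11 libraries, while DESeq2 called 5 members and limma-voom 3, and edgeR called all 6 without control replicate 1. Between the sorted populations, Gbp4, Gbp6 and Gbp8 were higher in PD-L1high cells. The paper treats PD-L1 as itself a target of IFNγ, so these populations were selected on a part of the response that is compared here. In bulk RNA a group with fewer responding cells and a group with less RNA per cell cannot be told apart. Both sorted populations were compared with the same 4 control libraries, so those 2 comparisons are not independent.

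Gbp6 gave the most counts of the cluster. It had 737, 642, 608 and 589 CPM in PD-L1high replicates 1 to 4 and 96.5, 79.9 and 65.4 CPM in PD-L1low replicates 2 to 4. Control replicates 1 to 4 had 57.5, 18.7, 13.5 and 9.58 CPM. The 3 groups did not overlap, though control replicate 1 came close to the lowest PD-L1low library. Gbp6 rose in PD-L1high relative to control cells (log2 fold change 5.03, standard error 0.38, adjusted p = 0.00077, edgeR's quasi-likelihood test). It was also higher in PD-L1high than in PD-L1low cells (log2 fold change 2.76, adjusted p = 0.0277, same edgeR test).

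Gbp10, whose coding sequence is nearly that of Gbp6, had 239, 239, 186 and 122 CPM in PD-L1high replicates 1 to 4 and 15.3, 9.91 and 8.92 CPM in PD-L1low replicates 2 to 4. Its level was 7.99, 0.675, 0.302 and 0.627 CPM in control replicates 1 to 4. Every PD-L1low library was above every control library, with control replicate 1 just below. The log2 fold change of PD-L1high over control cells was 6.81 (standard error 0.69, adjusted p = 0.0121, edgeR), and that of PD-L1high over PD-L1low cells was 3.77 (adjusted p = 0.117, edgeR), which did not pass.

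Gm43302 had 588, 475, 426 and 33 counts in PD-L1high replicates 1 to 4 and 0, 38 and 0 counts in PD-L1low replicates 2 to 4. Control replicates 1 to 4 had 0, 0, 8 and 0 counts. PD-L1high replicate 4 thus stood far below the other PD-L1high libraries (3.43 CPM against 33.5 to 37.9), which was not the case for Gbp6. A library with 0 counts allows up to 3 counts, or 0.211 to 0.269 CPM in these libraries. Gm43302 exceeded the filter in all 4 PD-L1high libraries, 1 PD-L1low library and no control library, so it was tested only through the group where it is high and had to differ. Its fitted log2 fold change of 8.00 (adjusted p = 0.0138, edgeR) depends on the prior count, and only 0.59% of its 75-base words are its own.

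Summing the 3 near-identical genes takes away the question of how their reads were divided. The sum was 1014, 919, 827 and 714 CPM in PD-L1high replicates 1 to 4 and 112, 92.6 and 74.4 CPM in PD-L1low replicates 2 to 4, against 65.5, 19.3, 14.3 and 10.2 CPM in control replicates 1 to 4. It did not overlap between any of the groups. The log2 fold change was 5.35 in PD-L1high over control cells (standard error 0.39, adjusted p = 0.00057, edgeR) and 2.96 in PD-L1high over PD-L1low cells (adjusted p = 0.0195, edgeR). In PD-L1low over control cells it was 2.40 (adjusted p = 0.252, edgeR). The sum was chosen after the counts had been seen.

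Gbp4, Gbp8 and Gbp9 have overlapping annotated spans but mostly their own sequence. Gbp4 had 268, 233, 213 and 182 CPM in PD-L1high replicates 1 to 4 and 12.0, 8.43 and 3.86 CPM in PD-L1low replicates 2 to 4. In control replicates 1 to 4 it had 7.37, 1.12, 0.906 and 0.269 CPM, so that PD-L1low replicate 4 lay below control replicate 1. In PD-L1high over control cells its log2 fold change was 6.89 (standard error 0.62, adjusted p = 0.00567, edgeR). In PD-L1high over PD-L1low cells it was 4.58 (adjusted p = 0.042, edgeR).

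Gbp8 had 176, 159.9, 135 and 124 CPM in PD-L1high replicates 1 to 4 and 24.01, 13.6 and 15.8 CPM in PD-L1low replicates 2 to 4. In control replicates 1 to 4 it had 14.04, 8.10, 7.00 and 2.96 CPM, with PD-L1low replicate 3 just under control replicate 1. Gbp8 had the smallest fold change of the cluster in PD-L1high over control cells, and the smallest standard error. In PD-L1high over PD-L1low cells the fold changes of Gbp6 and Gbp11 were smaller than that of Gbp8. The log2 fold change was 4.30 over control cells (standard error 0.23, adjusted p = 2.52e-07, edgeR) and 2.90 over PD-L1low cells (standard error 0.24, adjusted p = 3.92e-05, same edgeR test).

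Gbp9 had 132, 104.8, 112 and 79.1 CPM in PD-L1high replicates 1 to 4 and 9.77, 8.58 and 5.13 CPM in PD-L1low replicates 2 to 4. Control replicates 1 to 4 had 10.4, 1.72, 1.03 and 0.269 CPM, the first of them above all 3 PD-L1low libraries. The log2 fold change was 5.51 in PD-L1high over control cells (standard error 0.62, adjusted p = 0.014, edgeR). In PD-L1high over PD-L1low cells it was 3.46 and did not pass (adjusted p = 0.117, edgeR), although every PD-L1high library was above every PD-L1low library.

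Gbp11, the annotated polymorphic pseudogene, had 55.0, 40.9, 37.8 and 29.4 CPM in PD-L1high replicates 1 to 4 and 5.30, 4.51 and 7.16 CPM in PD-L1low replicates 2 to 4, where replicate 4 was the highest of its group, as for no other member. Control replicates 1 to 4 had 4.89, 0.300, 0.242 and 0.896 CPM. The log2 fold change was 5.18 in PD-L1high over control cells (standard error 0.57, adjusted p = 0.00347, edgeR). In PD-L1high over PD-L1low cells it was 2.48, without passing (adjusted p = 0.151, edgeR).

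**Figure D2:**
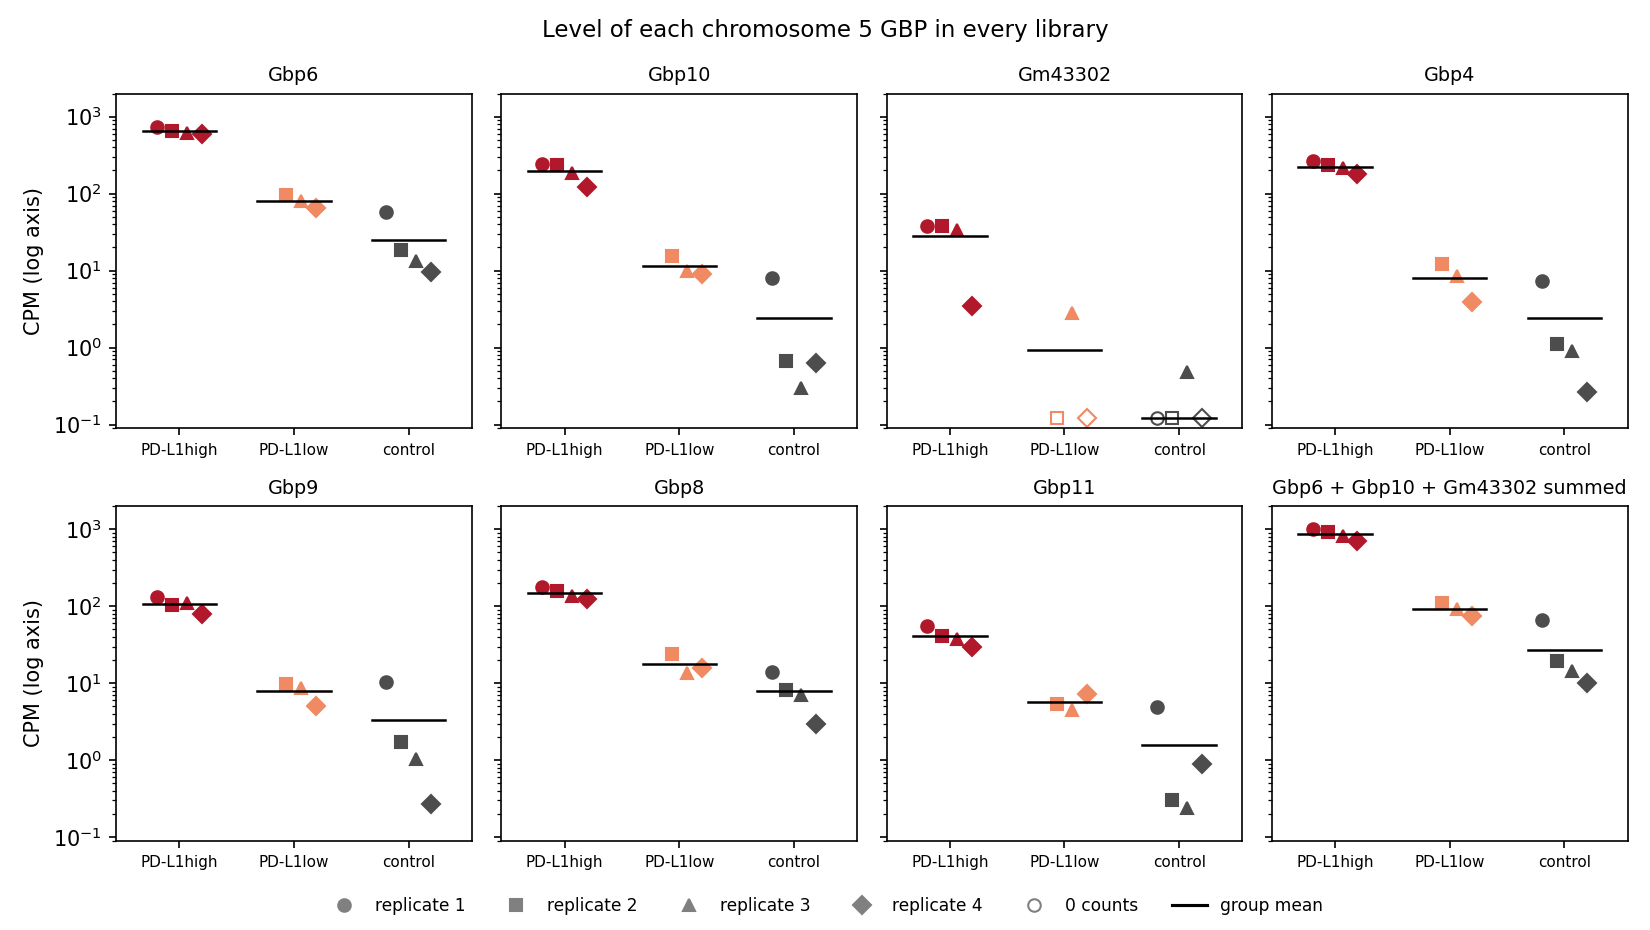
CPM of each member, and of Gbp6, Gbp10 and Gm43302 summed, in the 11 libraries, on a log axis with 1 symbol shape per replicate number and the group mean as a bar. Open symbols at the foot of the axis are libraries with 0 counts. For each of the 7 members the PD-L1high libraries lie above all others, and control replicate 1 lies above the other 3 control libraries except for Gm43302.

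Across the whole test, 0.941% of 16252 genes rose in PD-L1high over control cells, and 6 of the 6 members other than Gm43302 did. Of these, Gbp10 and Gbp11 were kept by the filter through the treated groups, where they are higher. Only Gbp4, Gbp6, Gbp8 and Gbp9 exceeded it in at least 3 control libraries. The counts and medians of the 6 in comparisons with control cells include Gbp10 and Gbp11. The median log2 fold change of the 6 was 5.35, beside -0.02 over all genes tested. With Gm43302, which had to differ, the count was 7 of 7. In PD-L1low over control cells 0.0615% of all genes rose and no member did by edgeR's test, with 6 of the 7 members and 2.1% of all genes at an unadjusted p under 0.05. The median of the 6 was 2.29, beside 0.00 for all genes. DESeq2 called 5 members and 0.215% of all genes higher there, and limma-voom called 3 members and 0.129% of all genes. In PD-L1high over PD-L1low cells 0.64% of all genes were called higher, and 3 of the 6 members were, with a median of 3.18 beside -0.00. DESeq2 and limma-voom each called all 7 members in that comparison, with 0.972% and 0.849% of all genes. The 7 include Gm43302, which passed the filter only through PD-L1high cells. All PD-L1high libraries were above all control libraries for 6 of the 6 members and 2.68% of all genes, and above all PD-L1low libraries for 6 of 6 and 4.41% of all genes. All PD-L1low libraries were above all control libraries for 2 members, Gbp6 and Gbp10, and for 1.28% of all genes. Gbp10 was kept through the treated groups.

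**Figure D3:**
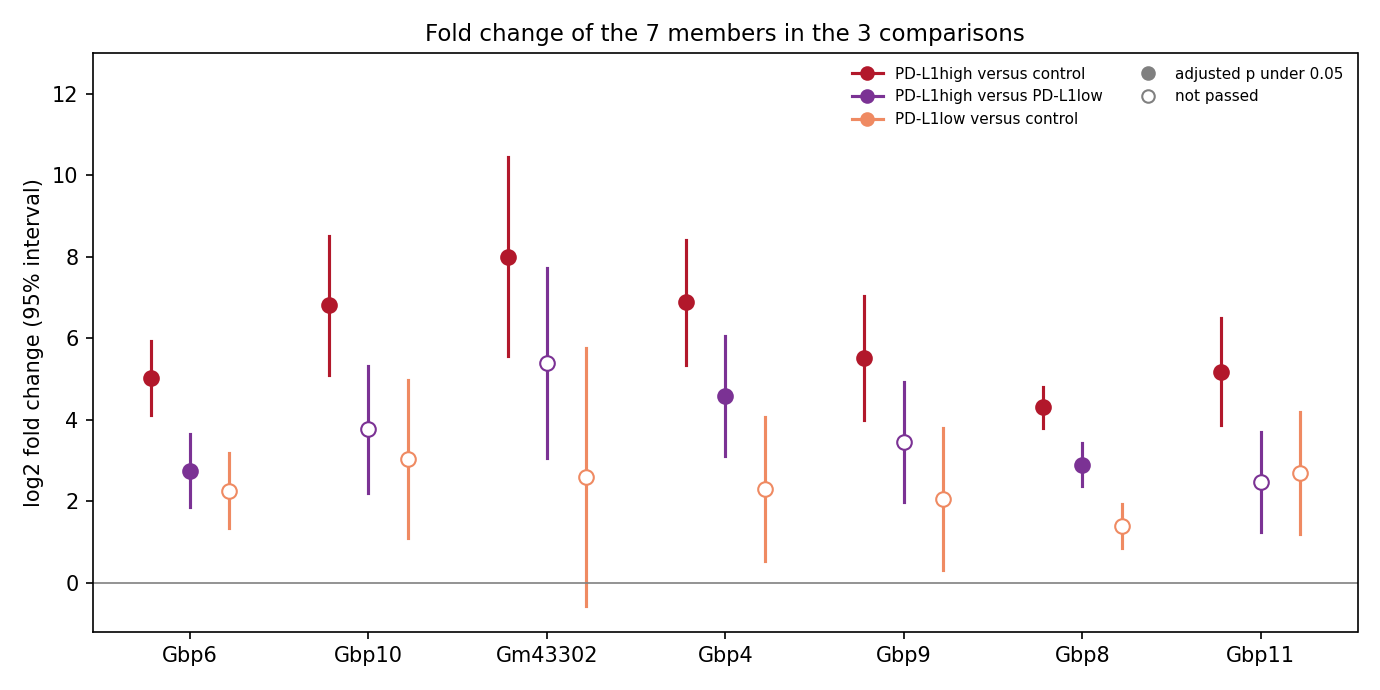
Fitted log2 fold change of each member with its approximate 95% interval in the 3 comparisons. Filled points passed an adjusted p of 0.05 in edgeR's quasi-likelihood test. All 7 points of PD-L1high versus control are filled, 3 of PD-L1high versus PD-L1low and none of PD-L1low versus control, where the interval of Gm43302 alone crosses 0.

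In PD-L1low over control cells the fitted log2 fold changes lay between 1.40 (Gbp8, standard error 0.25) and 3.03 (Gbp10, standard error 0.78). The smallest adjusted p was that of Gbp8 (0.0835, edgeR). Control replicate 1 had 4.14 times the mean of the other controls for Gbp6, 2.33 times for Gbp8, 9.61 times for Gbp4, 10.3 times for Gbp9, 10.2 times for Gbp11 and 14.9 times for Gbp10. Control replicate 1 also had the highest mitochondrial share (13.3%), and the part of this in its GBP level was not tested. Without that library, 6 of the 7 members were called higher in PD-L1low than in control cells and 6 of 7 in PD-L1high than in PD-L1low cells, all but Gm43302, beside 0.233% and 0.831% of all 15894 genes tested in that fit. The log2 fold changes of PD-L1low over control cells were then 3.31 for Gbp4 (adjusted p = 3.8e-05, edgeR), 2.54 for Gbp6 (adjusted p = 1.48e-07, edgeR) and 4.45 for Gbp10 (adjusted p = 1.01e-07, edgeR). For Gbp8 the value was 1.55 (adjusted p = 0.00233, edgeR), for Gbp9 2.93 and for Gbp11 3.62. With control replicate 1 kept, Gbp8 was called without PD-L1high replicate 4 (adjusted p = 0.0412, edgeR). Leaving out PD-L1high replicate 1 gave the same counts of 6 and 6, beside 0.218% and 0.779% of all genes. In that fit control replicate 1 is alone in its replicate number and its level is taken up by that term.

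The calls in PD-L1high over PD-L1low cells also moved with other single libraries. Only Gbp8 was called without PD-L1low replicate 2, PD-L1low replicate 4 or control replicate 2. Gbp4 lost its call without PD-L1high replicates 2, 3 or 4, any PD-L1low library or control replicates 2 or 3 (adjusted p up to 0.344, edgeR), and Gbp6 without PD-L1high replicates 2 or 3, any PD-L1low library, control replicate 2 or the replicate term (adjusted p up to 0.356, edgeR). In PD-L1high over control cells, Gbp6, Gbp8, Gbp4 and Gbp11 kept their calls whichever library was left out. The calls of Gbp9, Gbp10 and Gm43302 were each lost without some libraries, Gbp9 and Gbp10 without any 1 of the PD-L1low libraries among them (adjusted p from 0.0535 to 0.089, edgeR). In a fit of PD-L1high and control libraries only, Gbp6, Gbp8 and Gm43302 kept their call, of which Gm43302 had to differ. Gbp4, Gbp9, Gbp10 and Gbp11 did not keep theirs (adjusted p from 0.051 to 0.182, edgeR). That fit called 0.904% of all genes higher.

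Taking libraries of the same replicate number, each of the 7 members was higher in the PD-L1high than in the control library in 4 of 4 replicates. Each was higher in the PD-L1high than in the PD-L1low library in 3 of 3. Both orders follow from the lack of overlap between these groups. The PD-L1low library was above the control library in 3 of 3 replicates for 6 members. For Gm43302 it was above in 1 of 3, and in replicates 2 and 4 both libraries had 0 counts. The members share their libraries, so they are not replicates of each other. The share of all genes in the same order was not counted, and equal numbers are not shown to pair the samples. For Gbp6 the ratio of PD-L1high to PD-L1low cells was 6.65, 7.61 and 9.00 in replicates 2 to 4, and that of PD-L1low to control cells 5.17, 5.93 and 6.83. The ratio of PD-L1high to PD-L1low cells varied more for Gbp4, at 19.4, 25.2 and 47.1 in the same replicates. For Gbp8 it was 6.66, 9.93 and 7.85.

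PD-L1low cells reached a small share of the rise. The difference between the PD-L1low and control means, as a share of that between the PD-L1high and control means in CPM, was 9.01% for Gbp6, 6.95% for Gbp8 and 10.4% for Gbp11. It was 4.63% for Gbp10, 4.31% for Gbp9, 2.57% for Gbp4 and 2.91% for Gm43302. Taken within replicates 2 to 4, it was 12.5%, 11.2% and 9.64% for Gbp6 and 4.69%, 3.55% and 1.98% for Gbp4, which did not overlap. For Gbp11 the value of replicate 4 (22.0%) stood above those of replicates 2 and 3 (12.3% and 11.4%). No test was made between members.

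Levels were compared between members in TPM, which divides by the effective length of each gene. The 7 members together had 440.3 ± 122 TPM in PD-L1high cells (SD, n = 4), 41.5 ± 11.7 TPM in PD-L1low cells (n = 3) and 12.0 ± 8.32 TPM in control cells (n = 4). Gbp6 was first in every library, with 189 ± 42.4 TPM in PD-L1high cells, 23.4 ± 6.62 TPM in PD-L1low cells and 5.82 ± 3.76 TPM in control cells (SD). In PD-L1high cells the order of mean TPM was Gbp6, Gbp8 (76.1 ± 18.8), Gbp10 (67.0 ± 27.7), Gbp4 (58.2 ± 16.6), Gbp9 (25.3 ± 7.66), Gbp11 (17.0 ± 6.52) and Gm43302 (7.22 ± 4.52). The ranges of Gbp8, Gbp10 and Gbp4 overlapped from each to the next, and so did those of Gbp9, Gbp11 and Gm43302, while Gbp6 was clear of Gbp8 and Gbp4 of Gbp9.

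Gbp4 was 13.2% ± 0.455 of the summed TPM in PD-L1high cells (SD, n = 4), 4.62% ± 1.98 in PD-L1low cells (n = 3) and 3.99% ± 2.47 in control cells (n = 4), with no overlap between PD-L1high cells (12.6% at the lowest) and the others (6.44% at the highest). Gbp8 had its largest share in control cells, with 17.4% ± 1.45 in PD-L1high cells, 19.4% ± 3.95 in PD-L1low cells and 32.2% ± 9.31 in control cells. Gbp6 held 43.6% ± 2.83 in PD-L1high cells, 56.4% ± 3.14 in PD-L1low cells and 50.0% ± 4.48 in control cells. These shares have a common total, so a larger share of 1 gene makes those of the others smaller, and no test was made. Gbp6, Gbp10 and Gm43302 together held 58.3% to 61.3% in PD-L1high, 63.8% to 69.6% in PD-L1low and 49.6% to 60.4% in control libraries.

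**Figure D4:**
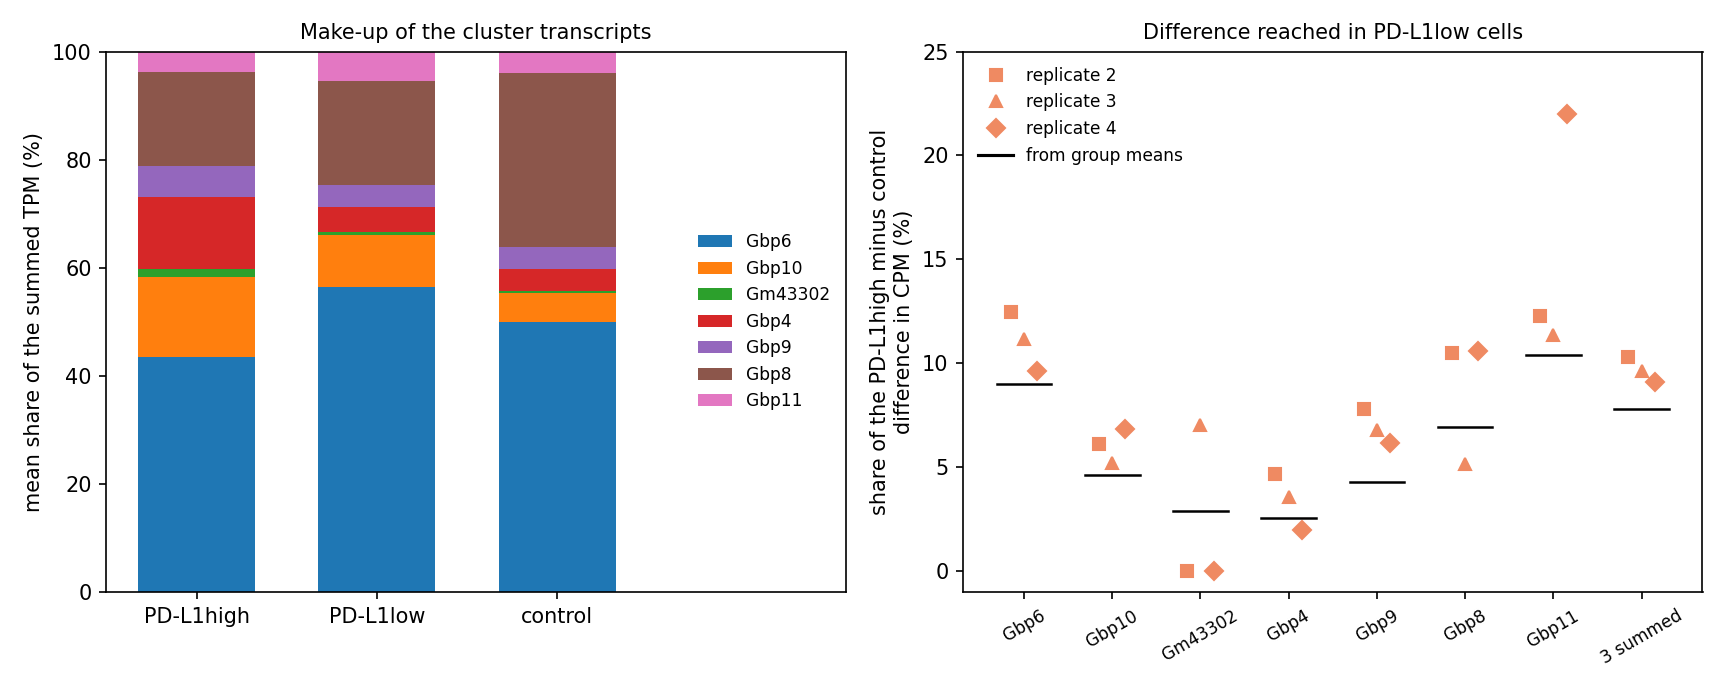
Left, mean share of the cluster's summed TPM held by each member in PD-L1high (n = 4), PD-L1low (n = 3) and control (n = 4) cells. Right, the PD-L1low minus control difference as a percentage of the PD-L1high minus control difference in CPM, for each replicate that has all 3 libraries (symbols) and from group means, which include replicate 1 of the PD-L1high and control cells (bars). Gbp4 takes 13.2% of the total in PD-L1high cells and 4.62% in PD-L1low cells, and the bars on the right lie between 2.57% and 10.4%.

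PD-L1high replicate 1 was the highest and PD-L1high replicate 4 the lowest of the 4 PD-L1high libraries for 7 of 7 members, and control replicate 1 was the highest control for 6 of 7. The members share these libraries and their normalization, and Gbp6, Gbp10 and Gm43302 share reads. The share of all genes with the same order was not counted, so the order is not shown to be particular to the cluster. The order was less uniform elsewhere. Of the 6 members other than Gm43302, PD-L1low replicate 2 was the highest of its group for 5 and replicate 4 for 1, and the lowest was replicate 4 for 4 and replicate 3 for 2. The lowest control was replicate 4 for 4 of these members and replicate 3 for 2. The coefficient of variation between PD-L1high libraries was 10.2% for Gbp6, 15.9% for Gbp8, 16.1% for Gbp4 and 59.0% for Gm43302. Between control libraries it was 57.1% for Gbp8 and 156% for Gbp10.

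The other GBPs and the IRGs, the GTPases that act beside them, were counted from lists. Of the chromosome 3 GBPs, 4 of 4 tested genes rose in PD-L1high over control cells (background 0.991% called in either direction), 1 rose in PD-L1low over control cells (background 0.08%) and 4 were higher in PD-L1high than in PD-L1low cells (background 0.732%). The 1 gene was Gbp7, with a log2 fold change of 1.34 in PD-L1low over control cells (adjusted p = 0.0376, edgeR), beside 1.40 for Gbp8 with a larger standard error. Gbp7 had 272 ± 29.4 CPM in PD-L1high cells, 56.5 ± 11.6 in PD-L1low cells and 25.4 ± 10.9 in control cells, and Gbp2 had 252 ± 81.6, 12.7 ± 6.62 and 3.49 ± 2.42 CPM in the same groups. In PD-L1high over control cells, the median log2 fold change was 5.35 for the 6 chromosome 5 members other than Gm43302. It was 4.03 for the 4 tested chromosome 3 members and 8.59 for the 7 IRGs. Of the IRGs, 7 of 7 rose in PD-L1high over control cells, 4 of 7 in PD-L1low over control cells and 5 of 7 were higher in PD-L1high than in PD-L1low cells. Gm12250, counted in the 7 and the 4, had 0 CPM in all 4 control libraries and was tested only through the treated groups. Iigp1, Tgtp1 and Tgtp2 had 0 CPM in at least 1 control library. The fitted folds of these IRGs depend on the prior count, so the medians do not rank the families. Igtp, a regulatory IRG, had 406 ± 86.3 CPM in PD-L1high cells, 65.4 ± 11.9 in PD-L1low cells and 8.25 ± 1.58 in control cells.

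Among genes of the IFNγ pathway, Stat2 and Irf9, which act in a transcription factor complex, and Irf1 rose in PD-L1high over control cells. Their log2 fold changes were 1.88, 1.61 and 1.80, all smaller than those of the 7 cluster members. In PD-L1low over control cells they were 0.77, 0.76 and 0.63, and none of these 3 passed. The receptor chain genes Ifngr1 and Ifngr2 had log2 fold changes of 0.31 and 0.16 in PD-L1high over control cells and did not pass. Of 11 genes for ATG8 proteins, their conjugation machinery and the receptor Sqstm1, none was called by edgeR in any of the comparisons, with 0 at an unadjusted p under 0.05 in PD-L1high over control cells, 0 in PD-L1low over control cells and 2 in PD-L1high over PD-L1low cells. Of all genes tested, 7.65%, 2.1% and 8.51% were under that p in the same 3 comparisons. Of 5 tested inflammasome genes none was called either, with 1, 0 and 1 at an unadjusted p under 0.05 in the same comparisons. Casp1, which encodes the inflammasome protease, had a log2 fold change of 3.44 in PD-L1high over control cells (adjusted p = 0.0697, edgeR) at 2.89 ± 1.24 CPM in PD-L1high cells and 0.249 ± 0.197 CPM in control cells.

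The genes outside the cluster whose pattern over the 11 libraries lay nearest to the mean pattern of the members were Ifi47, Gbp2, Gbp3, Gm4951 and H2-Q6. Likeness was measured as the root mean square difference between centred log2 CPM values, which was 0.48 for Ifi47, 0.56 for Gbp2, 0.61 for Gbp3, 0.76 for Gm4951 and 0.77 for H2-Q6. The members' own distances from their mean pattern were 0.45 for Gbp9, 0.50 for Gbp6, 0.70 for Gbp4, 0.77 for Gbp10 and Gbp11, 0.80 for Gbp8 and 1.61 for Gm43302. All points share their libraries and their depth.

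None of the genes that flank the cluster on chromosome 5 was called, like most genes tested. Of the 5 nearest tested genes on either side, from Lrrc8b at a distance of 69.3 kb and Zfp951 at 154 kb to Spp1 at 573 kb, 0 of 10 were called in any comparison by edgeR, and 0 of 10 had an unadjusted p under 0.05. Of all genes tested, 0.991% were called in either direction in PD-L1high over control cells and 0.08% in PD-L1low over control cells. In PD-L1high over PD-L1low cells 0.732% were. The shares at an unadjusted p under 0.05 were 7.65%, 2.1% and 8.51% in the same order. Counts of 0 of 10 are near these shares and do not set the flanking genes apart from other genes. The log2 fold change in PD-L1high over control cells was 0.02 for Lrrc8b and -0.21 for Zfp951, beside 5.18 for Gbp11 and 4.30 for Gbp8 at the 2 ends of the cluster.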

How the data were processed

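RNA-seq of sorted beta cells was deposited as 1 gene table per library. According to the study's methods, libraries were made with a stranded kit from random primers, read as pairs of 75 bases, aligned with STAR 2.5.2b to GRCm38.p6 and quantified with RSEM. The expected counts and the TPM values were made by the authors with RSEM, and the deposited files also give the effective length as their score of gene length, in bases. RSEM divides reads that fit several genes by an estimate. The submitters' processing notes name DESeq2 1.32.0 for the authors' own tests.

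Expected counts were rounded, which changed a total by at most 0.000265%. Symbols were found for 55141 of 55487 genes, and gene models came from GENCODE M21 on GRCm38. The main test was edgeR 4.0.16 (R 4.3.3, limma 3.58.1): TMM, filterByExpr with a count minimum of 10 (16252 genes), condition and replicate number as terms because the study's methods name a batch term, a robust quasi-likelihood fit of all 11 libraries, and Benjamini-Hochberg adjustment over all genes tested, with a threshold of 0.05. Intervals are approximate, at 95%. Genes called changed at that threshold are said to rise or fall. DESeq2 1.42.0 and limma-voom were alternatives. The procedure was tested on simulated data, but the settings and outcome are not given here, so nothing is concluded from that. Pairs of libraries of a group differed beyond sampling noise, so none was counted as a copy. Replicates are described in the study's methods as independent samples.

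The members, the lists and the rule for named genes were chosen with earlier results of these data known. All members are named. From each list at most 4 genes with the smallest p in PD-L1high versus control were taken, with Ifngr1 and Ifngr2 added after their values were seen, and 1 list is not reported here as a whole. No member fell under the filter, so the exact test planned for such members was not needed. Sequences were read from GENCODE transcripts on GRCm38.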

Additional observations from a re-analysis of the deposited data

Results flagged for a closer look

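Control replicate 1 stood apart from the other 3 control libraries for 4 members, by a gap to the nearest library that exceeded Dixon's 95% limit for a group of 4. It had 7.37 CPM of Gbp4, 10.4 CPM of Gbp9, 7.99 CPM of Gbp10 and 4.89 CPM of Gbp11, against at most 1.12, 1.72, 0.675 and 0.896 CPM in the other controls. Gm43302 stood apart in PD-L1high replicate 4, with 3.43 CPM against 33.5 to 37.9 CPM in the other PD-L1high libraries, and in control replicate 3, with 0.483 CPM and 0 in the other controls, where any 1 library with counts would stand apart. Of 14 groups of 4 libraries examined, 6 had such a library, while chance gives about 1 in 20 for independent groups. These are not independent: 4 of the 6 concern the same control library.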

How the results depend on the processing

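Members called in PD-L1high versus control, PD-L1low versus control and PD-L1high versus PD-L1low numbered 7, 0 and 3, beside 0.941%, 0.0615% and 0.64% of all genes called higher. The 7 include Gm43302, which had to differ. The members called stayed at 7, 0 and 3 with RLE or upper quartile normalization and with a count minimum of 50. The shares of all genes were then 0.911% to 1.29%, 0.0554% to 0.0672% and 0.572% to 0.857%. With no filter on low counts the members called were 7, 7 and 7, with DESeq2 7, 5 and 7 and with limma-voom 7, 3 and 7. In fits of only the groups compared they were 3, 6 and 6, with Gm43302 among the 3. Of all genes, 0.87%, 0.253% and 0.693% were called higher with no filter, and 0.904%, 0.173% and 0.852% in fits of only the groups compared. The shares were 1.31%, 0.215% and 0.972% with DESeq2 and 1.23%, 0.129% and 0.849% with limma-voom. With no filter the adjusted p of Gbp6 in PD-L1low versus control was 5.21e-46, against 0.326 in the main fit (both edgeR). Values this small from so few libraries are not taken as stronger evidence, and their cause was not tested. Without 1 library at a time the members called ranged from 5 to 7, from 0 to 6 and from 1 to 6. The shares of all genes ranged from 0.669% to 1.24%, from 0.0356% to 0.233% and from 0.366% to 0.831%. In the fits of PD-L1low with control cells alone, control replicate 1 is the only library of its replicate number, so that term takes up its level; the cause of the other shifts was not tested. Without the replicate block 6, 0 and 2 members were called, beside 0.763%, 0.0615% and 0.511% of all genes. The replicate number was kept as a block because the study's methods name a batch. Libraries with the same number did not all deviate together (correlations of -0.329 to 0.408), so the numbers are not shown to pair the samples.

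The direction of every member was kept in all alternatives except for Gm43302 in PD-L1low versus control, which ranged from -3.15 without PD-L1low replicate 3, the 1 PD-L1low library with counts, to 6.07 without control replicate 3, the 1 control library with counts. Summing Gbp6, Gbp10 and Gm43302, chosen after seeing the data, gave a sum that was called in PD-L1high versus PD-L1low (2.96, adjusted p = 0.0195, edgeR). Most of the sum is Gbp6, which was called alone (adjusted p = 0.0277, edgeR), while Gbp10 and Gm43302 alone were not (adjusted p = 0.117 and 0.0958, edgeR). Each member's share of the summed level in PD-L1high cells was also recalculated with CPM per kb in place of TPM or without 1 library. It moved by less than 1 SD in 35 of 35 recalculations, but this could not have come out otherwise. Leaving 1 of 4 libraries out cannot move their mean by 1 SD, and CPM per kb rests on the same counts and lengths as TPM. The recalculations are therefore no check on the shares. An alternative based on protein identity was not run. Low counts limit the control levels: Gbp4 and Gbp9 had 3 counts each in control replicate 4.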
